A study of Mus musculus with 6 samples.

Results

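The genes described here are 36 mouse genes for splicing regulators: 22 genes of heterogeneous nuclear ribonucleoproteins (hnRNPs), counting Ptbp1 and Syncrip, and 14 genes of serine and arginine rich (SR) proteins and their relatives. They were taken by name from the 51912 gene IDs of one expression table, and all 36 had a mean of at least 1 TPM over the 6 libraries. The lowest mean was that of Srsf4. TPM is the unit as that table names it, although its columns do not reach the usual TPM total. RNA was sequenced in bulk from bladder tumor organoids, which are small cultures grown from tumor cells in 3 dimensions, of C57BL/6 mice. The labels put 3 libraries in a group given SRT1720, a compound made to activate SIRT1, an enzyme that removes acetyl groups from proteins, and 3 in a group given vehicle. The sources used here do not give the dose, the duration or whether replicates came from different cultures or animals. Any p-value here therefore reflects just the spread among these libraries, and the source of that spread, technical or biological, is not known. The genes were proposed with results of this same contrast in view, so their differences between SRT1720 and Vehicle are given as a description and support nothing by themselves.

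An intron is removed from a transcript only where the splicing machinery recognises its ends, and hnRNP and SR proteins help decide how often a weak site is used. SR proteins carry RNA-recognition motifs and a tail of alternating arginine and serine. They mostly bind exons and recruit the machinery, whereas many hnRNPs bind exons or introns and hold it off. Their balance sets which exons enter the mRNA, and several of these genes limit their own level by splicing a stop codon into their transcripts, which are then degraded. Several, such as Srsf1 and Ptbp1, are known to be raised in tumors.

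Most members were higher with SRT1720, with Hnrnpm, Hnrnpa1, Srsf1, Srsf3 and Srsf6 in front. Of the 36, 30 had log2 fold changes above 0, where 54.8% of all 9287 tested genes did, and the median was 0.26 against 0.04 over all genes. A log2 fold change here is the mean log2(TPM + 1) of the SRT1720 libraries minus that of the Vehicle libraries. In 16 members every SRT1720 library lay above every Vehicle library (12.1% of all tested genes did so), and in 1 member, Hnrnph3, every SRT1720 library lay below (7.75% of all tested genes). No member passed limma's test with Benjamini-Hochberg adjustment over all genes (smallest adjusted p = 0.155, for Hnrnpm and Srsf6), and 0 of the 9287 genes did, with 1153 at an unadjusted p under 0.05. At an unadjusted p under 0.05 there were 13 members, all higher (7.86% of all tested genes were higher at that level). With limma's voom on recovered reads 0 genes were called too, and 14 members were at an unadjusted p under 0.05. Over all 9287 genes 1120 were at that level with voom, 698 higher and 422 lower. With median-of-ratios scaling, the genes whose groups did not overlap were split 917 higher to 912 lower over all genes, against 1125 to 720 with the values as deposited. Under that scaling 13 members stayed apart, and Hnrnpf, Hnrnpk and Hnrnpl no longer did.

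**Figure D1:**
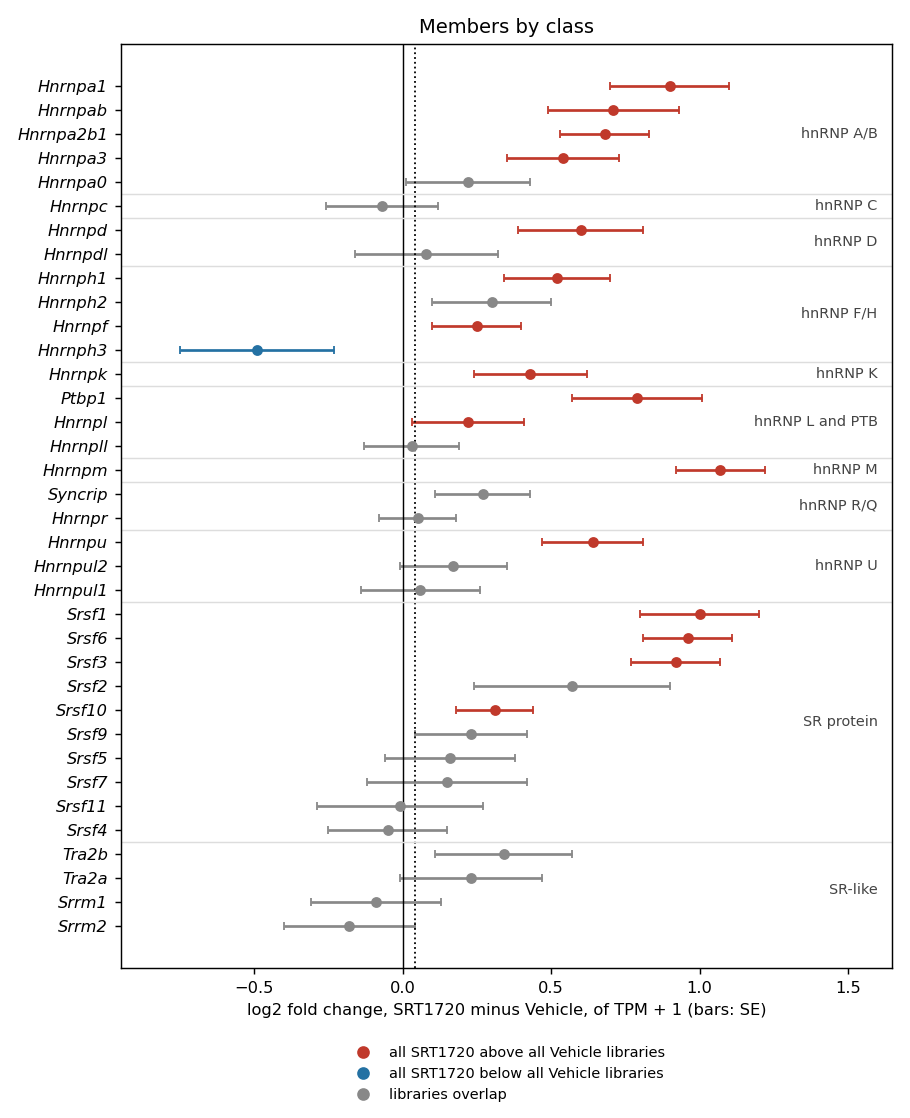
Log2 fold change (SRT1720 minus Vehicle, of TPM + 1) of each of the 36 members, grouped by class, with bars for the SE of the limma fit; the solid line is 0 and the dotted line the median of all tested genes, 0.04. Red points mark the 16 members whose SRT1720 libraries all lay above all Vehicle libraries, blue marks Hnrnph3 and grey marks overlap.

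Hnrnpm had the largest difference of the members. Its protein binds GU-rich intron sequence and is known for its part in splicing switches of epithelial cancers. Hnrnpm (ENSMUSG00000059208) stood at 19.4, 21.3 and 22 TPM in libraries 1, 2 and 3 of SRT1720, against 8.88, 9.97 and 9.37 TPM in those of Vehicle, a log2 fold change of 1.07 (SE 0.15). The libraries of each group lay close together and the groups were far apart. The log2 fold change of Hnrnpm stayed between 1.02 and 1.16 under all 17 alternative settings, and no annotated pseudogene matched its transcripts.

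The hnRNP A/B proteins are abundant nuclear proteins that bind UAG-like motifs and mostly act as splicing silencers. Hnrnpa1, the best studied of them, was at 74.8, 69.2 and 77.0 TPM with SRT1720 and 48.1, 31.0 and 39.8 TPM with vehicle (log2 fold change 0.90, SE 0.20). Hnrnpa2b1, whose protein also reads methylated adenosines and sorts RNA, was at 42.2, 47.8 and 43.8 against 27.2, 26.4 and 28.7 TPM (0.68, SE 0.15). Both genes were separated in every library. Hnrnpa3, a close relative, was at 22.8, 27.0 and 30.7 against 19.9, 15.4 and 19.2 TPM (log2 fold change 0.54, SE 0.19). Hnrnpab, which also binds DNA, was at 50.5, 59.6 and 52.5 against 40.2, 34.8 and 24.7 TPM (0.71, SE 0.22), with its lowest value in Vehicle 3. Hnrnpa0, an intronless gene whose protein binds AU-rich elements, overlapped, at 68.2 ± 11 TPM against 58.4 ± 11 TPM (SD, n = 3).

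Hnrnpu and Ptbp1 were also higher without overlap. Hnrnpu encodes a large nuclear scaffold protein that binds DNA and RNA, and was at 19.6, 22.2 and 20.6 TPM with SRT1720 and 14.9, 13.2 and 11.2 TPM with vehicle (log2 fold change 0.64, SE 0.17). Its relatives overlapped, Hnrnpul1 at 9.32 ± 0.45 against 9.02 ± 2.3 TPM and Hnrnpul2 at 26.3 ± 1.8 against 23.4 ± 3.7 TPM (SD, n = 3). Ptbp1, the polypyrimidine tract binding protein that represses neuronal and muscle exons in other tissues and favours the tumor form of pyruvate kinase, was at 8.44, 8.98 and 10.2 against 6.51, 5.19 and 3.41 TPM (0.79, SE 0.22). Vehicle 3 held its lowest value, and the log2 fold change of Ptbp1 was 0.51 without both SRT1720 3 and Vehicle 3. Hnrnpl, a binder of CA repeats, was at 15.6, 15.1 and 15 against 14.8, 14.6 and 9.99 TPM. The gap between its groups was small and Vehicle 3 made most of the difference: the log2 fold change of Hnrnpl was 0.22 (SE 0.19), and 0.05 without Vehicle 3. Its relative Hnrnpll, known from lymphocytes, was at 4.56 ± 0.40 against 4.49 ± 0.77 TPM, and its fold change turned below 0 in 5 of 16 alternative settings, among them both rescalings.

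Members of the F/H class, which bind runs of G, went in both directions. Hnrnph1 was at 10.7, 11.8 and 10.5 TPM with SRT1720 and 6.62, 9.08 and 6.52 TPM with vehicle (log2 fold change 0.52, SE 0.18), and Hnrnpf at 21.4, 23.6 and 22.6 against 20.5, 18.2 and 17.9 TPM (0.25, SE 0.15). Hnrnph2, on the X chromosome, overlapped at 5.17 ± 1.3 against 3.95 ± 0.46 TPM (SD, n = 3). Hnrnph3 was lower with SRT1720, at 2.09, 1.31 and 1.78 against 2.12, 4.59 and 2.18 TPM (−0.49, SE 0.26). SRT1720 1 nearly reached the lowest Vehicle library, and Vehicle 2 stood far above the others. The log2 fold change of Hnrnph3 was −0.22 without Vehicle 2.

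Hnrnpk and Hnrnpd were also higher without overlap, and Hnrnpc was not. Hnrnpk, a poly(C)-binding protein gene with roles in transcription and translation, was at 10.8, 10.5 and 11.1 TPM with SRT1720 and 6.83, 9.98 and 6.75 TPM with vehicle (log2 fold change 0.43, SE 0.19). Vehicle 2 came close to the SRT1720 libraries. Hnrnpd, also known as AUF1, which promotes the decay of AU-rich mRNAs, was at 2.25, 3.66 and 4.58 against 2.03, 1.91 and 1.76 TPM (0.60, SE 0.21), with SRT1720 1 just above the Vehicle range. Without both SRT1720 3 and Vehicle 3 the log2 fold change of Hnrnpd was 0.39. Hnrnpdl was at 9.67 ± 2.5 against 8.99 ± 1.9 TPM. Hnrnpc, the protein of which packages nascent transcripts along their length, was at 33.1 ± 4.7 against 34.9 ± 4.8 TPM (SD, n = 3). Hnrnpr and Syncrip, a pair of related genes, overlapped, Hnrnpr at 1.74 ± 0.14 against 1.64 ± 0.17 TPM and Syncrip at 3.23 ± 0.26 against 2.53 ± 0.55 TPM.

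**Figure D2:**
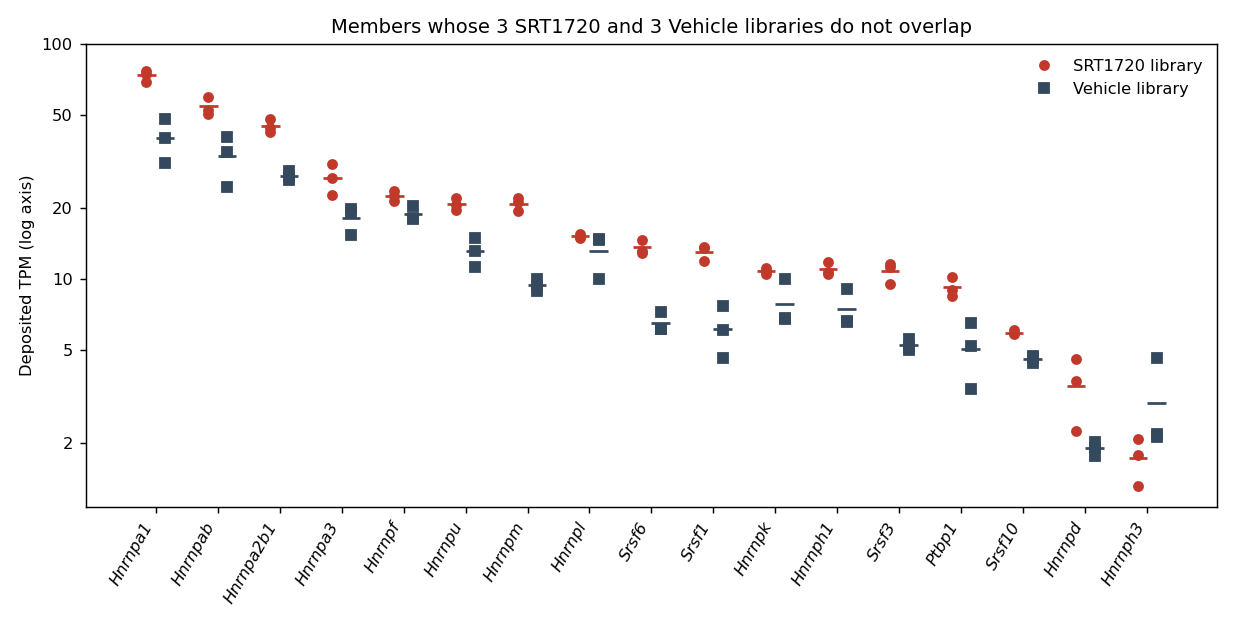
Deposited TPM (log axis) in each library for the 17 members whose groups did not overlap, SRT1720 as circles and Vehicle as squares, with group means as short lines. The groups are wide apart in Hnrnpm, Srsf6, Srsf1 and Srsf3 and nearly touch in Hnrnpl, Hnrnpk and Hnrnph3, where SRT1720 is the lower group.

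In 4 of 10 SR genes every SRT1720 library lay above every Vehicle library (12.1% of all tested genes did so). Among these, 3 genes, Srsf1, Srsf3 and Srsf6, were about doubled. Srsf1 (also known as SF2/ASF), the founding SR protein and a known oncogene in epithelial cells, was at 13.5, 13.7 and 11.9 TPM with SRT1720 and 6.05, 7.69 and 4.60 TPM with vehicle, a ratio of means of 2.13 (log2 fold change 1.0, SE 0.20). Srsf3, the smallest member of the family, which also links splicing to mRNA export, was at 9.55, 11.2 and 11.6 against 4.98, 5.13 and 5.57 TPM, a ratio of 2.06 (0.92, SE 0.15). Srsf6 was at 12.9, 14.7 and 13.2 against 6.11, 7.21 and 6.14 TPM, a ratio of 2.09 (0.96, SE 0.15). In each of the 3 genes the lowest SRT1720 library stood well above the highest Vehicle library. Srsf10, which can repress splicing when dephosphorylated, differed less but with little spread, at 6.05, 5.87 and 5.81 against 4.62, 4.39 and 4.68 TPM (0.31, SE 0.13). On GRCm38 Srsf1 lies at chr11:88047373-88053755, Srsf3 at chr17:29032628-29043373, Srsf6 at chr2:162931528-162937121 and Srsf10 at chr4:135855747-135869908.

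The other SR genes overlapped between groups. Srsf2, also called SC35, marks nuclear speckles and had the third widest spread of all members (SD 0.54 on the log2 scale over 6 libraries). It was at 5.14, 11.4 and 10.2 TPM with SRT1720 and 3.67, 7.26 and 5.68 TPM with vehicle. SRT1720 1 fell inside the Vehicle range, and the log2 fold change of Srsf2, 0.57 (SE 0.33), was 1.08 without both SRT1720 1 and Vehicle 2. With Vehicle 1 left out it was 0.35. Srsf7 was also low in SRT1720 1, at 23.8, 34.0 and 48.1 against 28.1, 28.8 and 35.1 TPM. Srsf9 was at 12.2 ± 0.76 against 10.4 ± 2.2 TPM, Srsf5 at 7.54 ± 1.0 against 6.77 ± 1.9 TPM and Srsf4 at 1.37 ± 0.37 against 1.47 ± 0.52 TPM (SD, n = 3). Srsf11 was at 3.07, 3.68 and 2.23 against 3.27, 4.38 and 1.71 TPM, lowest in SRT1720 3 and Vehicle 3. It lies on chromosome 3, whose tested coding genes were also lower in these libraries, with median deviations of −0.42 and −0.44 (log2), where the other 4 libraries lay between 0.14 and 0.29. The part of chromosome 3 in the values of Srsf11 was not tested.

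SR-like coactivators showed no shared direction. Tra2b, which promotes exons rich in GAA, was at 11.2, 8.46 and 8.20 TPM with SRT1720 and 6.90, 9.27 and 5.41 TPM with vehicle, and its relative Tra2a at 5.66, 4.55 and 4.62 against 3.46, 6.07 and 3.07 TPM. Both were high in Vehicle 2 and in SRT1720 1. Srrm1 and Srrm2, which encode large scaffold proteins of nuclear speckles, had log2 fold changes of −0.09 and −0.18 (SE 0.22 for each) and were lowest in SRT1720 1, at 3.38 and 10.3 TPM. Signs were not stable in the members with small differences: Hnrnpc, Hnrnpdl, Hnrnpll, Hnrnpul1, Srsf4, Srsf5, Srsf7, Srsf11, Srrm1 and Srrm2 changed sign under at least 1 alternative setting, and the other 26 members under none.

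**Figure D3:**
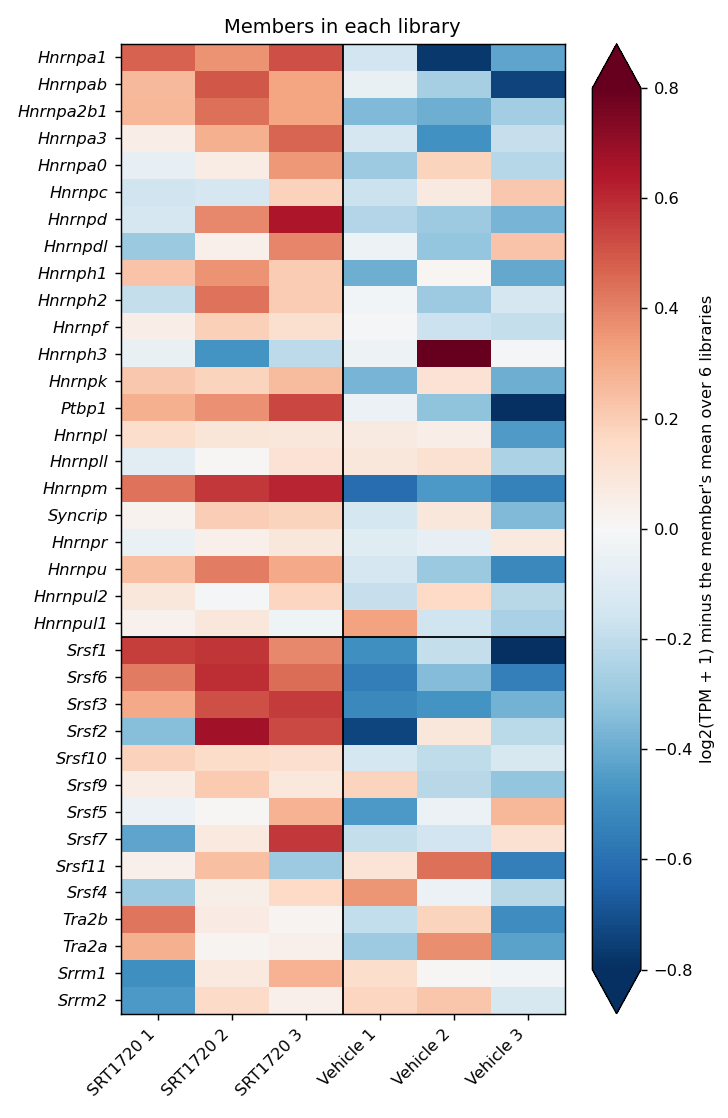
Heat map of log2(TPM + 1) minus each member's own mean over 6 libraries, hnRNP genes above the line and SR genes below it, with colors saturated at the ends of the scale. SRT1720 2 and 3 are red for 33 of 36 members each, Vehicle 3 is red for 5, and SRT1720 1 and Vehicle 2 are mixed.

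Libraries of a group were not alike. SRT1720 2 and SRT1720 3 each held 33 of 36 members above their own mean, and SRT1720 1 held 22. Vehicle 1, 2 and 3 held 8, 15 and 5. Reads of the 36 genes made up 1.06%, 1.19% and 1.20% of the reads recovered in SRT1720 1, 2 and 3 and 0.86%, 0.90% and 0.78% in Vehicle 1, 2 and 3, and the groups did not overlap in this total. In their deviations from the group means, SRT1720 3 and Vehicle 3 were alike over the 36 members (r = 0.62), as were SRT1720 1 and Vehicle 2 to a lesser degree (r = 0.38), against 0.79 and 0.72 over all tested genes, as a description. SRT1720 2 and Vehicle 1 were alike over all tested genes (r = 0.68) but hardly over the members (r = 0.16). No fit paired libraries across the groups by this likeness, so the p-values and overlap counts do not take it into account. Krt5, a basal keratin, was at 16.4 TPM in SRT1720 1 and 9.61 TPM in Vehicle 2 and between 425 and 1120 TPM in the other libraries. Mki67, a marker of dividing cells, was at 11.3 and 8.80 TPM in SRT1720 1 and Vehicle 2 and between 19.2 and 32.6 TPM in the others. Mitochondrial ribosomal RNA was at 702 and 1560 TPM in SRT1720 3 and Vehicle 3 and between 135 and 198 TPM in the others, and Sirt1 overlapped, at 0.792 to 1.29 TPM with SRT1720 and 0.474 to 0.971 TPM with vehicle. The part of these differences between libraries in the members' values was not tested, and in bulk RNA fewer cells of a type and less RNA per cell cannot be told apart. Without both SRT1720 1 and Vehicle 2 the median log2 fold change of the members was 0.39, with 34 of 36 above 0. Leaving out SRT1720 3 and Vehicle 3 instead gave several members their lowest value of all settings. Among them were Hnrnpa0 (0.05), Hnrnpk (0.33), Hnrnpd (0.39) and Ptbp1 (0.51), whereas Hnrnpa1 was lowest without SRT1720 1 and Vehicle 2 (0.72). Neither removal is set beside a median over all genes here.

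The tissue label was checked against marker lists. Of 16 epithelial and urothelial markers 12 reached a mean of 1 TPM, with summed levels of 623 to 2180 TPM with SRT1720 and 426 to 1390 TPM with vehicle. Upk1a, Upk2, Upk3a and Pparg did not, while Upk1b had a mean of 5.15 TPM and Gata3 of 1.66 TPM. The largest means were those of Krt5 (488 TPM), Krt14 (295 TPM) and Epcam (117 TPM), so the sums bear on epithelium more than on urothelium. Of the endothelial, smooth muscle and fibroblast lists 0 genes did, and their sums stayed at or below 4.38 TPM. Leukocyte markers summed to between 1.05 and 11.9 TPM with SRT1720 and between 1.99 and 16.3 TPM with vehicle, with Cd3e, Ms4a1 and Nkg7 at 0. Of these 14 markers 2 reached a mean of 1 TPM, Lyz2 and Cd68. Lyz2 was at 10.5 TPM in SRT1720 2, 14.3 TPM in Vehicle 1 and 0 in the other libraries. Cd68 was lower without overlap (7.75% of all tested genes were), at 1.31, 0.73 and 1.03 against 1.45, 1.92 and 3.09 TPM. Neuronal markers summed to between 2.42 and 17.6 TPM against 1.16 and 6.07 TPM. None of these sums separated the groups.

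Many of these genes have processed pseudogenes, which are copies of a spliced mRNA pasted elsewhere in the genome, and reads from the gene can be counted there. Among annotated pseudogenes, 78 matched the transcripts of 20 members better than those of any other coding gene, 76 of them processed, and 30 reached a mean of 1 TPM. Hnrnpa3 had 25 matching copies, with 7.26 times as many recovered reads as its own row, and Hnrnpa1 had 17, with 1.94 times as many. The read count of the 1 copy of Hnrnpk was 1.0 times that of its own row. If a read was counted on several rows, such ratios hold it more than once. For 16 members, among them Hnrnpm, Srsf1, Srsf6, Hnrnpu and Hnrnpab, no copy was matched. The stretches printed next are the coding sequence of 4 members beside 1 copy each, in coding direction with the bases that differ in capitals. They are shown because near-identical letters are what lets a read fall on either row.

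For Srsf3 the stretch covers coding bases 144 to 263 and the copy Gm9761 lies at chr3:116561164-116561283, - strand (GRCm38).
Srsf3: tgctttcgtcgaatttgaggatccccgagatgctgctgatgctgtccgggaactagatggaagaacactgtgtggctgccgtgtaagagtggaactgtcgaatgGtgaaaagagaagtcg
Gm9761: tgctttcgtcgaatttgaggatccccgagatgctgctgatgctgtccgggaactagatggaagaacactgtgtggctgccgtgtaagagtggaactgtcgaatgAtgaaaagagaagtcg
For Hnrnpk it covers coding bases 494 to 613, and Gm7964 lies at chr7:83756397-83756516, + strand.
Hnrnpk: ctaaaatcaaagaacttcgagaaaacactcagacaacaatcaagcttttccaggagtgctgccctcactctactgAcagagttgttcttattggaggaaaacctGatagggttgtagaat
Gm7964: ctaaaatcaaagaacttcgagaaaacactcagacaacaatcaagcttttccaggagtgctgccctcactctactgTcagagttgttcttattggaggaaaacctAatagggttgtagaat
For Hnrnpa3 it covers coding bases 1 to 120, and Gm11847 lies at chr4:12232833-12232952, + strand.
Hnrnpa3: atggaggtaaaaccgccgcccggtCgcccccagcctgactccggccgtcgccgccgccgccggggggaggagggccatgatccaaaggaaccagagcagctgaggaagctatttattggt
Gm11847: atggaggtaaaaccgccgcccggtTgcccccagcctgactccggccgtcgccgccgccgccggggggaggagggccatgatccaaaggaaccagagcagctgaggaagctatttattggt
For Tra2b it covers coding bases 614 to 733, and Gm10254 lies at chr3:54810518-54810637, - strand.
Tra2b: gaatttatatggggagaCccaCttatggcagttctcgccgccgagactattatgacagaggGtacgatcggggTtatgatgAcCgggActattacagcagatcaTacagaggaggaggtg
Gm10254: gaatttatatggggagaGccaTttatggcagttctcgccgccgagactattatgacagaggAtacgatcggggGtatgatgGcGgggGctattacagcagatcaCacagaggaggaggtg
Over these 120 bases the Srsf3 and Hnrnpa3 pairs differ at 1 base each, the Hnrnpk pair at 2 and the Tra2b pair at 8. Each stretch was chosen for the most differences within set limits, so these counts do not rank the copies. Over the whole alignment, identity was 99.6% for the Srsf3 pair and 99.2% for the Hnrnpk pair. It was 98.7% for the Tra2b pair and 98.1% for the Hnrnpa3 pair.

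The pseudogene rows differed in the same direction as their genes. All 30 measured copies had a fold change of the same sign as their member, 28 above 0 and 2, both of Hnrnpc, below. In 22 of the 30 every SRT1720 library lay above every Vehicle library (12.1% of all tested genes did so). Because gene and copy can share reads, these rows are not independent of the members or of each other. Of the 22, 10 were copies of Hnrnpa3 and 4 of Hnrnpa1, so their count is not one of separate genes. Gm9761, which is 99.6% identical to the Srsf3 transcript over its length, had 144 ± 23 TPM with SRT1720 against 54.8 ± 6.0 TPM with vehicle (SD, n = 3), a log2 fold change of 1.37 (SE 0.19). Gm10052, 100% identical to Hnrnpa1, was at 245 ± 9.5 against 122 ± 39 TPM. Gm12966, a copy of Srsf5, was at 44.9 ± 9.0 against 23.8 ± 6.7 TPM with its groups apart, although Srsf5 itself overlapped.

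When the recovered reads of each member and its copies were added, 3 of 20 log2 fold changes moved by more than 0.1: that of Hnrnpa3 from 0.54 to 0.72, that of Srsf3 from 0.92 to 1.08 and that of Srsf5 from 0.16 to 0.32. How reads with several matches were counted is not known, so a read may stand in such a sum more than once. No member changed between apart and overlapping. The correlation of log2(TPM + 1) between a copy and its member over the 6 libraries had a median of 0.93 over the 30 copies, with 27 above 0.8, and the lowest was 0.05, for a copy of Hnrnpc (Gm12445). All 10 measured copies of Hnrnpa3 had their lowest value in Vehicle 2, as Hnrnpa3 itself did.

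**Figure D4:**
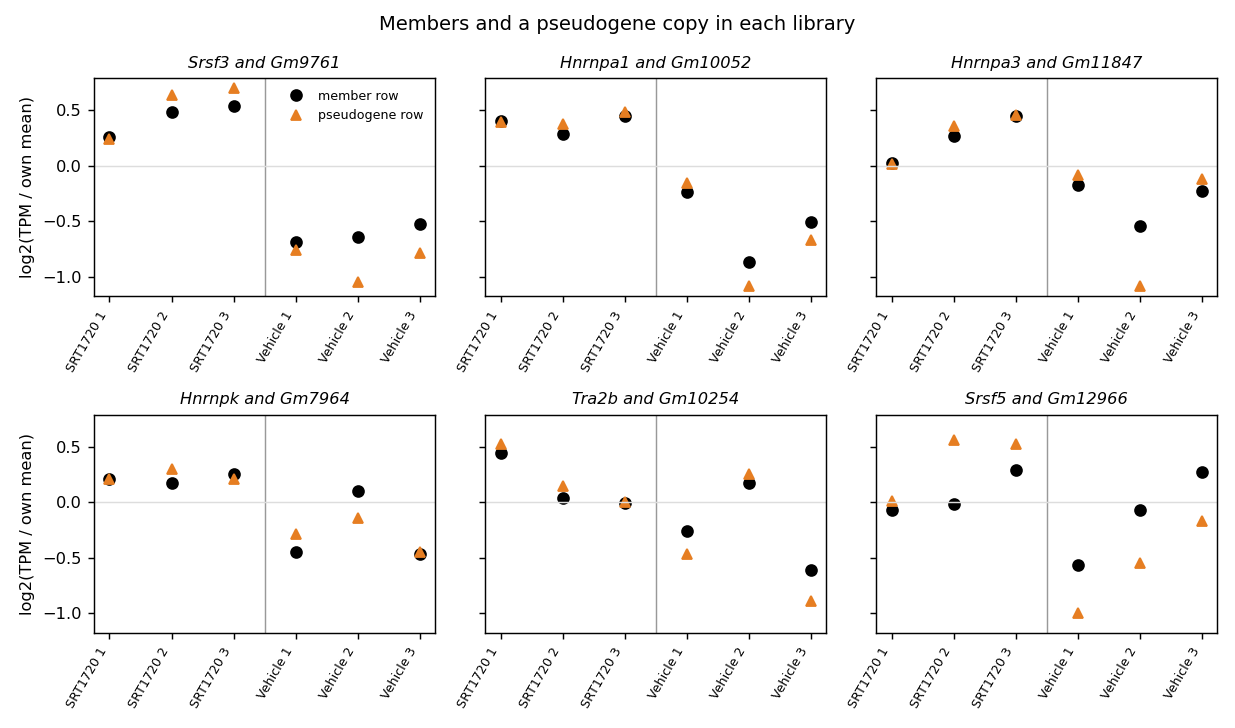
For 6 members and 1 pseudogene copy each, the log2 of TPM over the row's own mean in each library; circles are the member and triangles the copy, and the vertical line parts SRT1720 from Vehicle. Copies lie near their members in most libraries for Srsf3, Hnrnpa1, Hnrnpk and Tra2b, while the copy of Hnrnpa3 is lower than its member in Vehicle 2 and the copy of Srsf5 spreads more widely than its member.

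Levels can be compared between members only per length. The deposited values used gene lengths that ran from 0.61 to 3.75 times the merged exons of the member (median 1.69). Levels were therefore also computed as RPKM, from the recovered reads and the merged exons. The deposited values sum to less than TPM would, so a deposited level and an RPKM level are not on one scale. These levels count a member's own row only and leave out reads on its copies, which are most of the summed reads of Hnrnpa3 (87.9%) and Hnrnpa1 (65.9%). A read counted on several rows would be in those sums more than once. On this own-row RPKM scale Hnrnpf (199), Hnrnpa0 (163), Hnrnpa2b1 (159) and Hnrnpab (155) were highest and Hnrnph3 (11), Srsf4 (6.78) and Hnrnpr (6.36) lowest. Srsf9, at 70.6, was the highest of the SR genes, while the deposited TPM put Srsf7 first. Between 342 and 30370 recovered reads stood behind each member's value in a library, the fewest for Srsf4.

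Promoters of some members that were higher without overlap are printed as examples. RefSeq (GRCm38.p6) gave 47 promoter windows, from 250 bases before to 50 after a start, for 34 members. Each printed stretch runs 5′ to 3′ on the strand of the gene and stops before its first annotated base. Capitals mark the E-box CACGTG in Hnrnpa3 and Ptbp1, TTTCCCGC, a form of the E2F site, in Srsf1, and the CCAAT box, read as ATTGG, in Srsf3.
Hnrnpa3, chr2:75659109-75659258, + strand: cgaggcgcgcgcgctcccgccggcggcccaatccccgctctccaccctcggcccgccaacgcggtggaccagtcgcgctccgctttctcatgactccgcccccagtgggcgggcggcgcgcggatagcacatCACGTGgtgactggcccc
Ptbp1, chr10:79854277-79854426, + strand: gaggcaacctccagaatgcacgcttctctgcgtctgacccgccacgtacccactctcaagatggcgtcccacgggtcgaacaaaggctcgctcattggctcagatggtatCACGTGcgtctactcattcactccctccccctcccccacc
Srsf1, chr11:88047223-88047372, + strand: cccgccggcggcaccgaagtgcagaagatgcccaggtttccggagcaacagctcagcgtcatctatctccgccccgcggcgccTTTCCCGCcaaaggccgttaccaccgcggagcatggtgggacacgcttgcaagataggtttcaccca
Srsf3, chr17:29032478-29032627, + strand: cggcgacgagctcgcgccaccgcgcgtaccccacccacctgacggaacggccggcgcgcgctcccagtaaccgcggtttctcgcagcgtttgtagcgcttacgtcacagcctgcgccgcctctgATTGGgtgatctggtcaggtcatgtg
Motifs were searched on both strands. CCAAT stood in 24 of the 47 windows (51.1%), against 38.5% of the windows of all tested genes and 37.4% of all promoters. CACGTG stood in 6 windows (12.8%, against 10.8% and 7.2%), those of Hnrnpa3, Hnrnpd, Hnrnpf, Hnrnph2, Hnrnpm and Ptbp1. ACGTG, the core letters of the HIF site, which also lie within CACGTG, stood in 20 windows (42.6%, against 27.3% and 19.6%). The GC box GGGCGG stood in 38 windows (80.9%, against 67.5% and 35.7%) and TTTCCCGC in 5 (10.6%, against 2.4% and 1.1%). CCGGAAG, a form of the ETS site, stood in 10 windows (21.3%, against 19.9% and 8.9%) and the TATA box TATAAA in 4 (8.5%, against 6.6% and 13.6%). The 16 members higher without overlap had 24 of the windows and the other 18 members had 23. CCAAT stood in 16 windows of the higher members and in 8 of the others, and CACGTG in 5 and 1. For ACGTG the counts were 11 and 9, and for TATAAA 3 and 1. The other motifs were less frequent in the higher members: GGGCGG in 18 and 20, TTTCCCGC in 2 and 3 and CCGGAAG in 4 and 6. These differences were not tested. A motif match is only a run of letters and does not show that a factor binds there.

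Annotated transcripts of the members were counted as well, since many SR genes are known to make transcripts with an early stop codon. In GENCODE M21, 13 of 14 SR and SR-like members and 12 of 22 hnRNP members had at least 1 transcript marked for nonsense-mediated decay, the route that removes such transcripts. Of 8080 tested protein-coding genes 27.7% had one. Members also had more annotated transcripts, with a median of 9.0 against 5.0 for those genes, and the part of this in the difference was not tested. Among the 16 higher members 10 had such a transcript and among the other 20 members 15 did. The table has 1 value per gene, so productive and degraded transcripts of a member cannot be told apart.

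Other genes of the splicing pathway differed from list to list. In 8 lists with 166 genes, 154 were measured. The 166 include Sirt1, a deacetylase gene placed in the list of SR protein kinases, which was not measured (mean 0.885 TPM). Of the 154 measured genes 118 were above 0, with a median log2 fold change of 0.16. Without overlap 37 were higher and 5 lower (12.1% and 7.75% of all tested genes were). None passed limma's adjusted test (smallest adjusted p = 0.155), and at an unadjusted p under 0.05 there were 19 higher and 3 lower (7.86% and 4.55% of all tested genes).

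Of the 6 Srpk and Clk genes, whose kinases phosphorylate SR proteins, 3 were lower without overlap (7.75% of all tested genes were). Srpk2, an SR protein kinase, was at 1.53, 1.55 and 1.44 TPM with SRT1720 and 2.41, 2.82 and 2.40 TPM with vehicle (log2 fold change −0.50, SE 0.12). Clk1, a nuclear kinase that releases SR proteins from speckles, was at 1.96, 1.62 and 1.79 against 2.08, 4.72 and 3.43 TPM (−0.62, SE 0.23), and Clk3 at 0.845, 1.25 and 1.39 against 1.63, 1.67 and 1.53 TPM. In these 3 kinases every SRT1720 library lay below every Vehicle library, by a small gap in Clk1 and Clk3. Srpk1, Clk2 and Clk4 overlapped, with log2 fold changes of 0.19, −0.14 and −0.29, as did the kinase genes Prpf4b (0.10) and Dyrk1a (−0.08). Of the 12 measured genes in this list, 2 were higher without overlap (12.1% of all tested genes were), the phosphatase genes Ppp1cc and Ppp1ca. Ppp1cc was at 8.70 ± 0.48 against 6.65 ± 0.28 TPM (SD, n = 3). The list's median was −0.04.

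Genes of the exon junction complex and mRNA export had the highest median of the 8 lists, 0.33, with 19 of 22 above 0. Without overlap 12 were higher and 0 lower (12.1% and 7.75% of all tested genes were). Ncbp2, the cap-binding subunit, was at 6.89 ± 0.83 against 3.37 ± 0.21 TPM, and Ddx39, an export helicase gene, at 6.83 ± 0.67 against 3.05 ± 1.2 TPM. Thoc7 was at 12.1 ± 1.5 against 7.46 ± 0.41 TPM, and Nxf1, the main mRNA export receptor, at 5.06 ± 0.11 against 3.19 ± 0.36 TPM (SD, n = 3). These 4 genes lay apart in every library.

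Among 35 measured sequence-specific regulators outside the hnRNP and SR classes, 23 were above 0 with a median of 0.10, and 7 were higher and 1 lower without overlap, where 12.1% and 7.75% of all tested genes were. Sfpq, a paraspeckle protein gene, was at 23.5, 24.1 and 22.2 TPM with SRT1720 and 12.1, 11.6 and 8.76 TPM with vehicle (log2 fold change 1.05, SE 0.18), close to the difference in Hnrnpm. Its partner Pspc1 was at 2.09 ± 0.85 against 0.835 ± 0.074 TPM. Rbm10 was at 3.44 ± 0.59 against 1.87 ± 0.48 TPM, and Esrp2, an epithelial splicing regulator, at 2.26 ± 0.53 against 1.05 ± 0.45 TPM (SD, n = 3).

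In the core machinery the differences were mostly small. Over all tested genes 12.1% were higher and 7.75% lower without overlap. The tri-snRNP list had 15 of 18 genes above 0 (median 0.16) and 5 higher without overlap, led by Prpf31, a gene of retinal disease, at 2.87, 3.46 and 2.80 TPM against 1.40, 1.10 and 1.19 TPM (log2 fold change 0.86, SE 0.14). Eftud2, a GTPase of the U5 particle, was at 6.03 ± 0.97 against 3.28 ± 0.68 TPM. Of the U1, U2 and branch site factors 20 of 24 were above 0 (median 0.19), and 4 were higher and 1 lower without overlap. Sf3a3 was at 11.4 ± 1.9 against 7.09 ± 1.1 TPM and Luc7l, a U1 factor, lower at 2.23 ± 0.46 against 3.26 ± 0.33 TPM. Sm and LSm proteins had 11 of 12 above 0 (median 0.20) and 4 higher without overlap. Lsm6 was at 2.70 ± 0.22 against 1.54 ± 0.34 TPM. The Prp19 and catalytic list had 19 of 21 above 0 (median 0.16) and 2 higher without overlap. The helicase gene Dhx16 was at 4.68 ± 0.14 against 3.22 ± 0.33 TPM (SD, n = 3). Factors of nonsense-mediated decay had 5 of 10 above 0 (median 0.04), and 1 of them, Upf3b, lay apart, at 3.88 ± 0.24 against 2.89 ± 0.42 TPM.

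**Figure D5:**
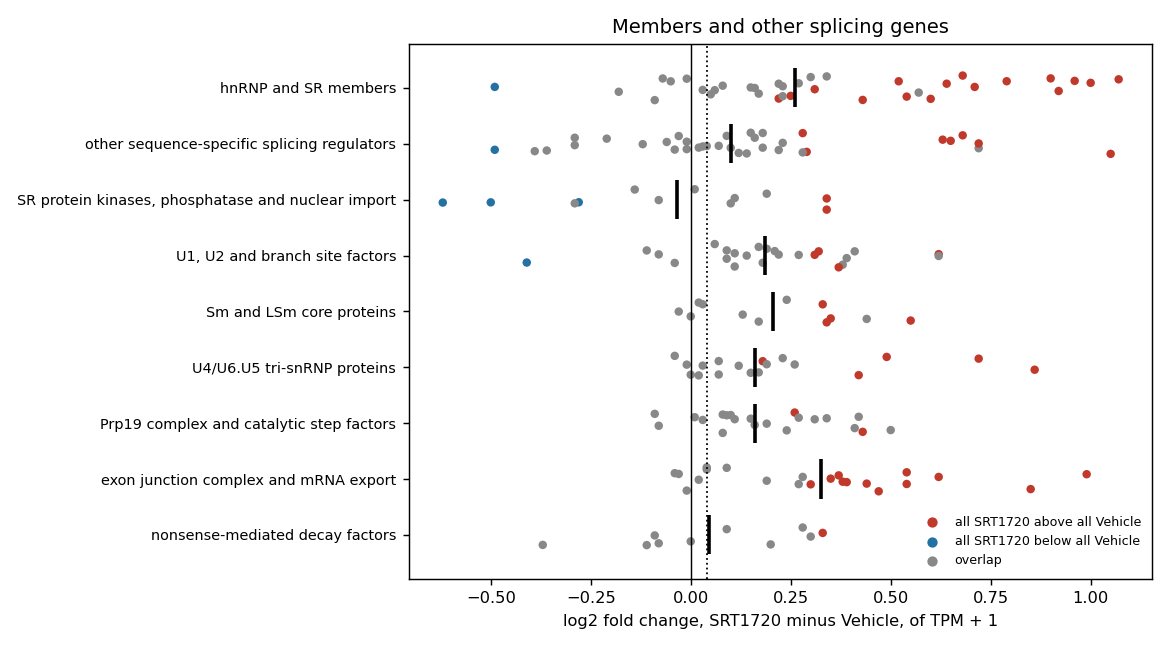
Log2 fold change (SRT1720 minus Vehicle, of TPM + 1) of the 36 members in the top row and of the measured genes of 8 other splicing lists; each point is a gene, black bars are list medians and the dotted line is the median of all tested genes, 0.04. The members' median is 0.26, that of exon junction and export genes 0.33 and that of SR protein kinases, phosphatases and import −0.04.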

How the data were processed

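Bulk RNA-seq of 6 libraries, 3 per group, was read from the authors' deposited table of TPM values, a unit taken from the table's name. The values summed to between 161231 and 171577 per library, below the total that defines TPM. A level or filter in TPM here is therefore in the deposited unit, not on the usual TPM scale. The submitters' processing notes list STAR 2.6.0 and the GRCm38 build. For the counting program, the annotation and the handling of reads with several matches, nothing was given in the sources used here. Within a gene the values stand in whole-number ratios after division by 1 step per library, which gave whole reads (within 0.01 at most) for 100% of the 27713 IDs above 0, and 18294356 to 22894586 recovered reads per library. The lengths behind the values equalled the exon length for 1186 of 1318 genes with 1 annotated transcript, and for 7710 of 8694 genes with several they exceeded the merged exons (median ratio 1.52), which lowers the TPM of those genes.

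Genes whose mean reached 1 TPM were fitted on log2(TPM + 1) by limma 3.58.1 under R 4.3.3, with a moderated variance that follows the mean, with Benjamini-Hochberg adjustment at 0.05. This scale understates the change of low genes. Copies were found with blastn 2.17.0 (identity of at least 85% over at least 50% of the pseudogene), keeping those whose best coding match was a member. Names and positions came from GENCODE M21 on GRCm38. Members and lists were chosen with earlier results of these data known. Values in every library are given for members whose groups do not overlap and the 3 with the widest spread. Of each list, up to 4 genes with the smallest p are named, and Srpk1, Srpk2 and Clk1 to Clk4 whatever their values. Hnrnpa0, Srsf7, Srsf11, Tra2a and Tra2b, and Ppp1ca, Prpf4b and Dyrk1a, were named or given in more detail after their values were seen. Python 3.11.15, pandas 2.3.3, numpy 2.4.6 and matplotlib 3.10.9 were used. The alternatives were another pseudocount, filter, scaling, weighting or block, voom, libraries left out and copies added.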

Additional observations from a re-analysis of the deposited data

How the results depend on the processing

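Over all genes tested 0 were called under each of the 17 alternatives. The median log2 fold change of the members was 0.26. It was 0.39 without both SRT1720 1 and Vehicle 2 and between 0.23 and 0.34 when 1 replicate was left out. The number of members above 0 was 28 to 33 when 1 replicate was left out, against 30. The number higher without overlap was then 16 to 21, against 16, but leaving a library out can only keep or raise such a count, since fewer libraries must be apart. The same holds over all genes, whose shares with libraries left out are not given here. Counts with libraries left out, higher or lower, therefore cannot be set against a share of all genes. The number lower without overlap, 1 with all libraries, was 0 with the filter at 5 TPM, which Hnrnph3 fails, and 1 to 2 when 1 replicate was left out (Srrm2 was added without Vehicle 3). It was 3 without both SRT1720 3 and Vehicle 3, where Hnrnpll and Srrm2 were added. Members at an unadjusted p under 0.05 numbered 13, but 8 without SRT1720 2 and 6 without both SRT1720 3 and Vehicle 3, and over all genes 1153 became 523 and 682. With library weights all genes at that level were 2056, with no filter 2028 and with the filter at 5 TPM 498. Of 603 single-member values under alternatives, 14 moved by more than the spread between replicates. Replicate numbers did not pair the libraries: same-numbered libraries had correlated deviations of −0.20, −0.26 and 0.79. With a replicate block 0 genes were called, with 1133 at an unadjusted p under 0.05. The members' median of 0.26 could not change there, since a block with 1 library per group leaves each fold change as it was. Depth limits Srsf4 most, with 342 recovered reads in its lowest library.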
